A study of Mus musculus with 2 samples.

Results

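Cytokine mRNA decay regulators are RNA-binding proteins and nucleases that set how long the transcripts of cytokines and costimulatory receptors persist. The 9 genes described here are Zfp36, Zfp36l1 and Zfp36l2 of the ZFP36 family, Rc3h1 and Rc3h2 (Roquin-1 and Roquin-2), the nuclease genes Zc3h12a, Zc3h12d and N4bp1, and Arid5a. They were taken by gene symbol from the large gene table (9 of 55536 genes), the transcript table (41 of 141862 transcripts) and the small count table (9 of 22457 genes) of each library. The study sequenced polyadenylated RNA of primary inflammation-experienced regulatory T cells given as male and aged 7 weeks, which per the labels had come from activated regulatory T cells. Both libraries, numbered 1 and 2 here after their technical replicate number, come from the same biological replicate and donor entry. No other condition, strain or genotype is named, and whether animals were pooled is not stated. SDs (n = 2) are therefore between libraries of 1 biosample and are not a spread between animals, and no comparison between conditions was possible.

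ZFP36 proteins bind AU-rich elements in the 3' untranslated region (3' UTR) of an mRNA and recruit the CCR4-NOT complex, which shortens the poly(A) tail. Roquins bind short hairpins called constitutive decay elements and recruit the same complex and the decapping machinery, and Regnase-1, the product of Zc3h12a, cuts stem-loops in mRNAs that are being translated. Arid5a is known to oppose Regnase-1 on some cytokine mRNAs. In T cells the MALT1 protease cleaves Regnase-1, the Roquins and N4BP1 after antigen receptor stimulation. Mice with the sanroque point mutation in Roquin-1, or without Regnase-1 in T cells, develop autoimmunity.

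The 2 libraries held 26593267 and 22036331 expected counts over GENCODE genes (library 1 and library 2), and 7911181 and 6972139 counts in the small tables. Expected counts are estimates that divide reads mapping to several transcripts among them, and TPM (transcript abundance scaled to a fixed total per library) divides by transcript length as well, so levels of different genes are compared here in TPM. The defining markers of the labelled cells were present. All 6 regulatory T cell markers were detected, with Foxp3, the lineage-defining factor, at 87.3 TPM (library 1) and 87.4 TPM (library 2). The summed TPM of 6 general T cell markers was 7538 and 7458. Markers of other cells differed between the libraries. The summed TPM of 6 erythroid markers was 8494 in library 1 and 94.7 in library 2. The sum over 8 macrophage or myeloid markers was 32.6 and 83.1, and 7 of the 8 were lower in library 1, where C1qc was at 0, while Lyz2 was higher there. The sum over 4 proliferation markers was 59.9 and 16.6. Of these, 3 were higher in library 1, while Top2a was lower there, at 6.5 TPM against 9.24 TPM in library 2. The sum over 4 B cell markers was 153.7 and 110.1, and over 2 CD8 T cell markers 27.0 and 13.5. That over 4 NK cell markers was 164 and 257, with Ncr1 at 0 in library 1. Klrb1c went the other way, at 4.26 TPM in library 1 and 3.75 TPM in library 2. In bulk RNA, fewer cells of a type and less RNA per cell cannot be told apart. The part of these cells in the library differences given below was not tested.

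The mRNAs of 5 of the 9 regulators carry, in their own annotated 3' UTRs, the letters that ZFP36 proteins are known to bind best, TTATTTATT, and those of both Roquins also carry the core of a constitutive decay element, TTCTGTGAA. These sites are shown because the same letters occur in the mRNAs that the regulators act on. Each site is written 5' to 3' as DNA from GENCODE M21 transcripts (mm10), with the motif in capitals and 10 bases on either side. The AU-rich sites are followed by 1 of 5 overlapping copies in Tnf, the best known ZFP36 target.
Zfp36 (chr7:28376951-28376979, minus strand): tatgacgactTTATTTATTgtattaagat
Zfp36l1 (chr12:80108167-80108195, minus strand): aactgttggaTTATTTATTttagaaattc
Zfp36l2 (chr17:84184914-84184942, minus strand): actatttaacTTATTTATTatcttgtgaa
Rc3h1 (chr1:160970043-160970071, plus strand): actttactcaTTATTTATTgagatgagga
Rc3h2 (chr2:37373287-37373315, minus strand): caaagacattTTATTTATTttactctgta
Tnf (chr17:35199689-35199717, minus strand): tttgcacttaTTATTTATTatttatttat

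The hairpin cores follow, first those of the Roquins and Arid5a and then those of 4 known target mRNAs. In the core, TTC pairs with GAA around the loop TGT, and further bases on either side may pair as well.
Rc3h1, upstream site (chr1:160968032-160968060, plus strand): tttgtttttgTTCTGTGAAtgaactttat
Rc3h1, downstream site (chr1:160971653-160971681, plus strand): agccaataacTTCTGTGAAgttgcctttt
Rc3h2 (chr2:37373802-37373830, minus strand): tttaattaacTTCTGTGAAgttgtttact
Arid5a (chr1:36322126-36322154, plus strand): ttctccttccTTCTGTGAAtgagagaact
Tnf (chr17:35199578-35199606, minus strand): cagacatgttTTCTGTGAAaacggagctg
Icos (chr1:60999479-60999507, plus strand): agaacaaaatTTCTGTGAAataaaatctg
Nfkbid, first site (chr7:30428395-30428423, plus strand): tctaggtgatTTCTGTGAAatcgagccca
Nfkbid, second site (chr7:30428423-30428451, plus strand): acttgattgtTTCTGTGAAacactctaga
Ier3 (chr17:35822867-35822895, plus strand): agtatgtatgTTCTGTGAAcacgaataaa

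Counting unbroken Watson-Crick pairs outward from the loop, the stem was 6 pairs long in Rc3h2, in the downstream site of Rc3h1, in Tnf and in both Nfkbid sites. It was 5 pairs long in Icos and Ier3. It was 3 pairs long, the core alone, in Arid5a and in the upstream site of Rc3h1. Only the sense strand of 3' UTRs was searched, and the AU-rich copies of Tnf overlap each other. Among 10710 detected protein-coding genes, each taken by its most abundant coding transcript with a 3' UTR, 6.51% held TTATTTATT and 2.16% held TTCTGTGAA. By that rule 4 of the 9 regulators held the nonamer and 2 held the core, since the most abundant coding transcript of Rc3h1 by mean TPM, Rc3h1-201, holds neither, and the counts given above take any coding transcript with a TPM above 0. Longer 3' UTRs hold more matches. The 3' UTR of Zfp36 had 767 bases, and 4.01% of 1296 3' UTRs within 20% of that length held the nonamer. For Zfp36l1 (1835 bases) and Zfp36l2 (1822 bases) the share was 8.39% and 8.40%. For the 3' UTR of 7181 bases in transcript Rc3h1-202 the shares were 25.6% for the nonamer and 10.7% for the hairpin core. For that of 5331 bases in Rc3h2-202 they were 20.6% and 6.75%. Zc3h12a, Zc3h12d and N4bp1 held neither set of letters. A match describes letters and does not show that a protein binds there.

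All 9 regulators passed the detection threshold, which was 1 TPM in each library, and their levels spanned 3.07 to 376 TPM. The ZFP36 family was the most abundant. Zfp36 itself, also known as tristetraprolin and an immediate early gene (ENSMUSG00000044786.6, chromosome 7, 28376784 to 28380253, minus strand), reached 247 TPM in library 1, with 376 TPM in library 2. Its mean of 311 ± 91.6 (SD, n = 2) stood at the 96.2 percentile of 10818 detected protein-coding genes. Zfp36l2, which is known to restrain cytokine translation in memory T cells (ENSMUSG00000045817.8, chromosome 17, 84183931 to 84187947, minus strand), had 213 and 227, a mean of 219.8 ± 10.1 at the 93.9 percentile. Zfp36l1, its close relative in lymphocyte development (ENSMUSG00000021127.7, chromosome 12, 80107754 to 80113013, minus strand), had 83.7 and 80.3, a mean of 82.0 ± 2.42. Within the family, Zfp36 supplied 45.4% of the summed TPM in library 1 and 55.0% in library 2, Zfp36l2 39.2% and 33.2%, and Zfp36l1 15.4% and 11.8%. The family as a whole made up 77.2% and 77.7% of the TPM of the 9 genes.

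Arid5a, the stabilizing factor (ENSMUSG00000037447.16, chromosome 1, 36307733 to 36324029, plus strand), stood at 89.3 TPM in library 1, with 123 TPM in library 2. Its mean was at the 84.4 percentile. It thus stood above Zfp36l1 in both libraries and below Zfp36l2 in both. Counting protein-coding transcripts alone, Arid5a had 55.8 and 71.2 and stood below Zfp36l1.

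The Roquins and the nucleases were lower. Rc3h2 (ENSMUSG00000075376.10, chromosome 2, 37370069 to 37422903, minus strand) stood at 25.8 TPM in library 1, with 22.2 TPM in library 2. Rc3h1, the gene mutated in sanroque mice (ENSMUSG00000040423.10, chromosome 1, 160906418 to 160974978, plus strand), had 12.2 and 11.6. The level of Rc3h1 was 0.473 of that of Rc3h2 in library 1 and 0.522 in library 2, so Roquin-2 had the more abundant RNA by gene TPM. That order depended on noncoding transcripts. Counting protein-coding transcripts alone, Rc3h1 had 11.5 and 11.3 and Rc3h2 had 9.47 and 11.2.

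Zc3h12a, encoding Regnase-1 (ENSMUSG00000042677.7, chromosome 4, 125118423 to 125127840, minus strand), stood at 17.0 TPM in library 1, with 16.7 TPM in library 2. Zc3h12d, encoding Regnase-4 (ENSMUSG00000039981.6, chromosome 10, 7832470 to 7870396, plus strand), had 13.3 and 16.8. The ranges of these paralogs met, and their ratio was 1.27 in library 1 and 0.996 in library 2, so their order was not set by TPM. In the small table, scaled by library total (CPM) and not corrected for length, Zc3h12a was higher in both libraries. It had 60.7 and 60.1 CPM there, and Zc3h12d 49.7 and 55.2. N4bp1, another nuclease of the same fold (ENSMUSG00000031652.11, chromosome 8, 86808160 to 86885258, minus strand), was the lowest of the 9, at 3.07 TPM (library 1) and 5.81 TPM (library 2). It stood at the 12.7 percentile of detected protein-coding genes, and was the only one of the 9 below a TPM of 5 in either library.

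**Figure D1:**
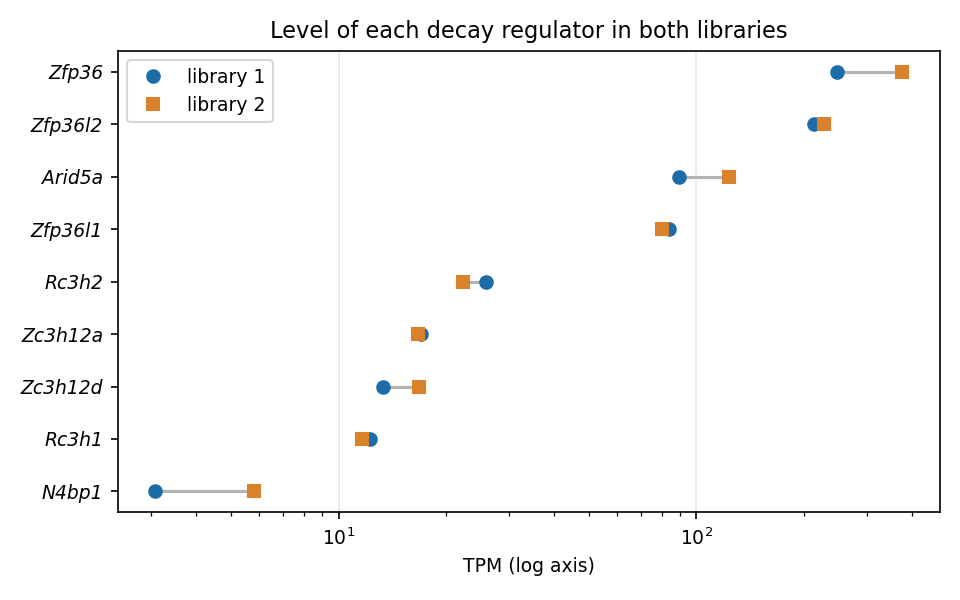
TPM of each of the 9 regulators (log axis) in library 1 (circles) and library 2 (squares), joined by a line and ordered by mean level. Zfp36 and Zfp36l2 lie above 200 in both libraries, N4bp1 lies at 3.07 and 5.81, and the libraries are closest for Zc3h12a, at 17.0 and 16.7.

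The comparison that the data allow is between the 2 libraries, made for each gene by an exact binomial test, 2-sided, on rounded expected counts and Benjamini-Hochberg adjustment over 24253 genes. It compares these libraries and covers counting error only. Ratios are library 1 over library 2 after scaling by library totals. Among all genes tested, 70.3% passed an adjusted p of 0.05, 23.9% higher and 46.4% lower in library 1. Of the 9 regulators, 2 were higher in library 1, 6 were lower and 1 did not pass. With 9 genes, most of which have high counts, this was not read as a difference from the background. None differed 2-fold, against 42.5% of all genes tested, which include many with few counts. The median absolute log2 ratio was 0.70 for all genes tested but 0.28 for detected genes. All 9 regulators were detected, so the share past 2-fold is not a like background for them. The median log2 ratio of the 9 was -0.19, beside -0.23 for all genes tested and -0.01 for detected genes. Of all calls, 33.9% were higher in library 1 with library totals, 42.6% with TMM factors and 45.2% with DESeq2 size factors, which moved the median of detected genes to 0.10 and 0.14. With TMM factors 2 regulators were higher and 4 lower, beside 30.1% and 40.5% of all genes (70.6% in either direction, 42.1% at least 2-fold). With DESeq2 size factors 4 were higher and 4 lower, beside 32.1% and 39.0% (71.2% in either direction, 42.0% at least 2-fold). In the small table none was higher and 3 were lower, beside 22.1% and 32.2% of 14483 genes tested there (54.3% in either direction, 26.9% at least 2-fold).

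For 3 regulators the direction and the call held in the large table under library totals, TMM and DESeq2 scaling, and in the small table. Zfp36 had 9924 counts in library 1 and 12379 in library 2, a log2 ratio of -0.59 (95% interval of the fold 0.647 to 0.682, adjusted p = 5.14e-201, exact binomial test). In the small table it had 1734 and 1799 counts and a log2 ratio of -0.24, so the sizes of the differences do not match. Arid5a had 4416 and 4767 counts, a log2 ratio of -0.38 (fold 0.737 to 0.800, adjusted p = 3.12e-35, exact test), and -0.33 in the small table from 1705 and 1883 counts. N4bp1 had 323 and 476 counts, a log2 ratio of -0.83 (fold 0.487 to 0.649, adjusted p = 6.40e-15, exact test), and -0.78 in the small table from 192 and 290 counts. The size of the N4bp1 difference was therefore close in both tables.

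For the other 6 the call or the direction depended on the table or the scaling. Rc3h1 had 1429 counts in library 1 and 934 in library 2, a log2 ratio of 0.34 (fold 1.17 to 1.38, adjusted p = 5.28e-08, exact test), and 0.11 with no call in the small table. The effective length of Rc3h1 was 7061 bases in library 1 and 5937 in library 2. Its TPM, which divides by length, was 12.2 and 11.6, a fold of only 1.05. Zc3h12d had 895 and 920 counts, a log2 ratio of -0.31 (fold 0.734 to 0.885, adjusted p = 1.22e-05, exact test), and -0.15 with no call in the small table. Zfp36l1 had 3768 and 2774 counts and a log2 ratio of 0.17, but -0.041 with no call in the small table. Rc3h2 had 1709 and 1614 counts and a log2 ratio of -0.19, a call lost with TMM and DESeq2 scaling, and 0.11 with no call in the small table. Zfp36l2 had 12280 and 10716 counts and a log2 ratio of -0.075, which became 0.070 and was still called with DESeq2 size factors and became 0.035 with no call under TMM. Zc3h12a had 762 and 613 counts and a log2 ratio of 0.042 (fold 0.925 to 1.15, adjusted p = 0.644, exact test), and was called only with DESeq2 size factors, at 0.19.

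**Figure D2:**
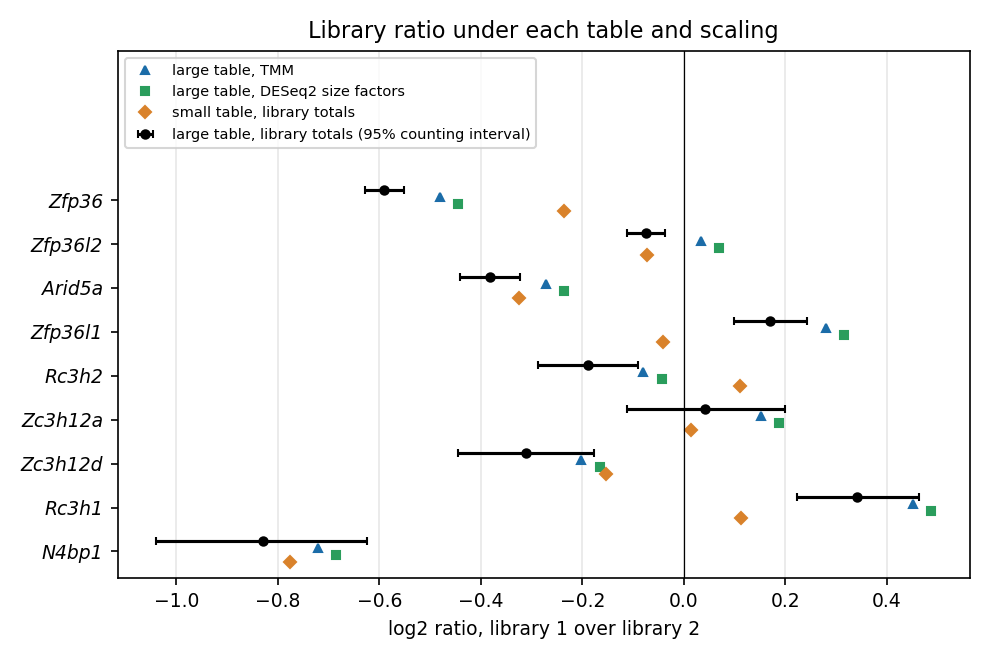
Log2 ratio of library 1 over library 2 for each regulator, in the large table with library totals (circles, bars are 95% counting intervals), with TMM (triangles) and DESeq2 size factors (squares), and in the small table (diamonds). All values lie below 0 for Zfp36, Arid5a, Zc3h12d and N4bp1, and above 0 for Rc3h1 and Zc3h12a, while those of Zfp36l2, Zfp36l1 and Rc3h2 lie on both sides.

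Zfp36 had the highest factor between the tables among the 9 and Zc3h12a the lowest. The large table held 5.72 times as many counts for Zfp36 as the small table in library 1 and 6.88 times in library 2, beside 3.36 and 3.16 for all counts together. For Zfp36l2 the factors were 5.16 and 4.86, for Zfp36l1 4.30 and 3.49, and for Zc3h12a 1.59 and 1.46. Scaled to CPM, which is not corrected for length, the small table gave Zfp36l2 301 and 316, Arid5a 216 and 270, and Zfp36 219 and 258. In that table Zfp36l2 came first and Zfp36 no longer led.

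**Figure D3:**
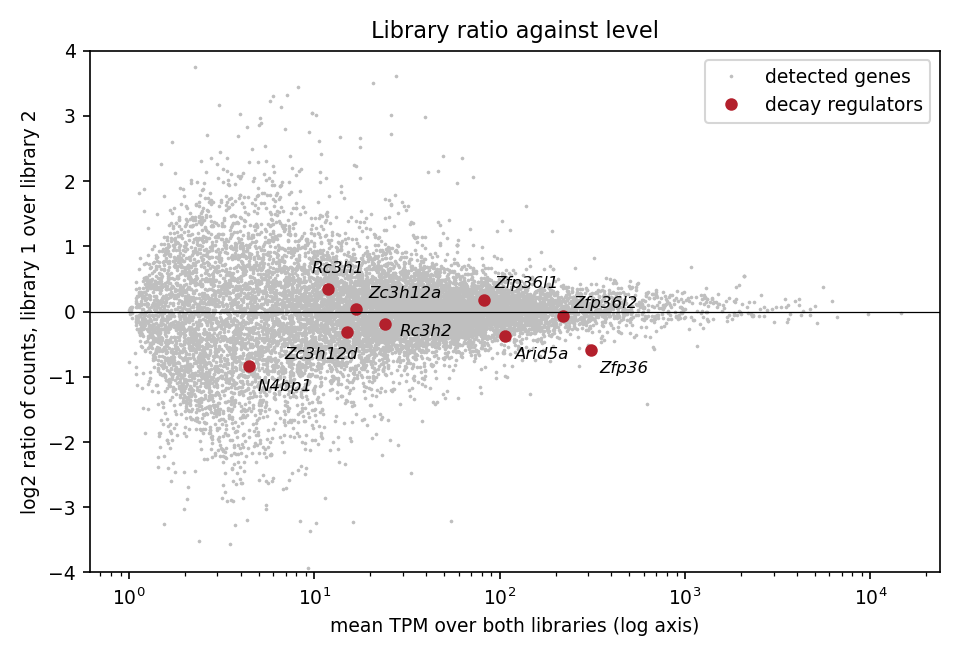
Log2 ratio of library 1 over library 2 against mean TPM (log axis) for 13464 detected and tested genes (grey) and the 9 regulators (red, named), with 11 genes outside the axis limits. The spread of the grey points narrows with level, and Zfp36 lies among the lowest points near its level, with a log2 ratio of -0.59 at a mean TPM of 311.

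The transcript table showed simple composition for some regulators and a mixture for others. Of 41 annotated transcripts, 34 had a TPM above 0 in either library. Zfp36l2 and Zc3h12d each have 1 annotated transcript, and Zc3h12a had all of its TPM in Zc3h12a-201. Zfp36 had 97.3% of its TPM in library 1 and 97.1% in library 2 in Zfp36-202, a model of 1 exon of 2465 bases. That model runs through the 680 bases that are the intron of the other model, Zfp36-201 (chromosome 7, 28378494 to 28379173). Zfp36-201 begins 998 bases further upstream, so the models differ in more than the intron and this share is no measure of unspliced RNA.

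For 6 of the 9 genes the same transcript had the highest TPM in both libraries, and the exceptions were Rc3h1, Rc3h2 and Arid5a. By expected counts the same transcript led in both libraries for 9 of 9. Rc3h1 had 43.9% of its TPM in library 1 and 62.7% in library 2 in Rc3h1-201, whose annotated 3' UTR has 20 bases. The transcript with the long 3' UTR that holds the sites printed above, Rc3h1-202, had 50.4% and 34.4%, from 1118 and 593 expected counts. The SD of these counts over the possible read assignments was 21.6 and 16.0, as deposited. Rc3h1-202 thus had the larger share in library 1, and more counts than Rc3h1-201 in both libraries.

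Of 10 annotated Rc3h2 transcripts, 9 had a TPM above 0. Rc3h2-204, a noncoding processed transcript of 513 bases, had 34.0% of the TPM in library 1 and 19.3% in library 2 from only 67.5 and 27.1 counts. The full-length coding transcript Rc3h2-202 had 27.4% and 31.8% from 1045 and 855 counts, and the retained-intron transcript Rc3h2-209 had 20.5% and 25.3%. Rc3h2-201, which is coding too, had 3.41% and 18.5%, with 128 and 489 counts and deposited SDs of 90.2 and 126, so its difference is poorly resolved. The effective length of the gene was 3996 bases in library 1 and 5350 in library 2, and gene TPM was higher in library 1 while the count ratio was lower there. Coding transcripts made up 36.7% and 50.4% of the TPM of Rc3h2, and all of those with a TPM above 0 hold both motifs.

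Arid5a was divided among 3 main transcripts. Arid5a-204, coding and with the long 3' UTR, had 34.7% of the TPM in library 1 and 29.4% in library 2. Arid5a-205, annotated as a target of nonsense-mediated decay, had 27.0% and 29.7%, and the coding Arid5a-201 had 25.7% and 23.7%. Deposited SDs of their counts were from 118 to 266, on counts from 802 to 2361, which limits how well they are told apart. Retained-intron transcripts of Arid5a made up 10.5% and 12.6%.

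Zfp36l1 and N4bp1 each had a leading transcript with a lower share in library 2. Zfp36l1-201, which holds the nonamer, had 88.6% of the TPM in library 1 and 77.8% in library 2. Zfp36l1-202 had 3.51% and 10.6%, from 91.9 and 218 counts with deposited SDs of 62.8 and 67.9, and Zfp36l1-204 had 7.87% and 11.6%. Both are coding models that lack the nonamer. N4bp1-201 had 97.4% and 88.0%, and the retained-intron transcript N4bp1-203 had 2.61% and 12.0%, from 4.05 and 30.4 counts.

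**Figure D4:**
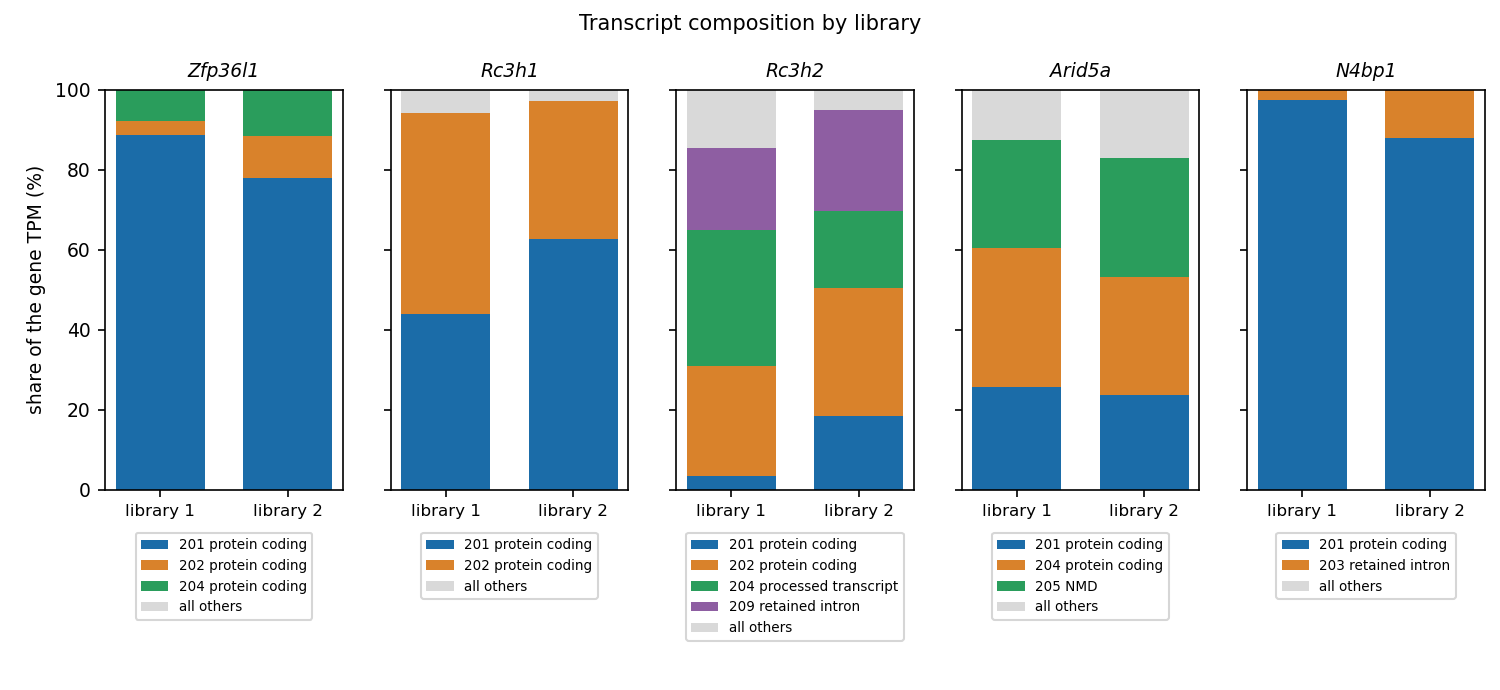
Share of the gene TPM (%) in each transcript with at least 10% in either library, for the 5 regulators with more than 1 such transcript, library 1 left and library 2 right (NMD is nonsense-mediated decay). Rc3h1-201 takes 43.9% and 62.7%, Rc3h2-204 takes 34.0% and 19.3%, and N4bp1-203 takes 2.61% and 12.0%.

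Relatives of the 9 genes were low, with some exceptions. Khnyn, a nuclease related to N4bp1 and cofactor of an antiviral zinc finger protein, stood at 45.7 TPM in library 1, with 64.4 TPM in library 2. Both values were above those of N4bp1. Its log2 ratio of -0.42 had the sign of that of N4bp1. Arid5b had 35.9 and 36.2. Zc3h12c had 0.50 and 1.81, Zc3h12b 0.67 and 0.63, and Nynrin 1.20 and 1.23. Zfp36l3, a placental member of the ZFP36 family, had 0 counts in both libraries, which allows up to 0.113 and 0.136 CPM (counts scaled by library total). Zc3h12b had 49 and 45 counts, but 0 and 19 in the small table. Of the 6 relatives, 5 were tested, and 2 (Khnyn and Zc3h12c) were lower in library 1, none higher, while DESeq2 size factors gave 2 higher (Nynrin and Arid5b) and 2 lower. TMM factors gave 1 higher (Nynrin) and 2 lower, and the small table none higher and 4 lower. Of all genes tested, 23.9% were higher and 46.4% lower, or 32.1% and 39.0% with DESeq2 size factors. These shares were 30.1% and 40.5% with TMM factors and 22.1% and 32.2% in the small table.

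The machinery that the regulators recruit was detected throughout. All 19 genes of the deadenylation list (CCR4-NOT subunits, PAN2-PAN3, PARN and the BTG and TOB adaptors) passed the detection threshold. Btg1, an adaptor linked to T cell quiescence, had 932 in library 1 and 993 in library 2, the poly(A)-binding protein gene Pabpc1 had 275 and 235, and the NOT-module subunit gene Cnot2 had 112 and 97.7. The lead of Btg1 depended on the table. Its counts in the large table were 54.0 and 45.1 times those in the small table, beside 3.36 and 3.16 for all counts. In CPM of the small table Btg1 had 103 and 118, below Pabpc1 (289 and 289) and Cnot2 (230 and 216). In library 1, 4 of the 19 were higher and 10 lower, beside 23.9% and 46.4% of all genes tested. With DESeq2 size factors 10 were higher and 4 lower, beside 32.1% and 39.0%. The largest ratios were 0.59 for Cnot11, with a TPM of 47.6 and 26.9, and -0.56 for the catalytic subunit Cnot6l, with 63.1 and 96.9. All 13 decapping genes found were detected, led by the P-body protein gene Lsm14a (162 and 129), the cap-binding repressor gene Eif4e2 (104 and 114) and Edc4 (66.3 and 78.3), a decapping scaffold that Roquin binds. In library 1, 4 of these were higher and 5 lower, or 7 and 4 with DESeq2 size factors. The decapping enzyme gene Dcp2 had 289 and 430 counts and the largest count ratio, -0.84, but 20.6 and 20.1 TPM, with effective lengths of 845 and 1575 bases, and its activator Dcp1a followed with -0.66.

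The exosome and Ski complex, which degrade RNA from the 3' end, had all 15 genes detected. The core subunit gene Exosc8 stood at 158 TPM in library 1, with 156 TPM in library 2, the helicase gene Skiv2l 104 and 116, and Exosc5, another core subunit gene, 104 and 87.4. In library 1, 3 of these were higher and 7 lower, beside 23.9% and 46.4% of all genes tested. With DESeq2 size factors 5 were higher and 4 lower, beside 32.1% and 39.0%. The largest ratios were -0.49 for the cytoplasmic exonuclease gene Dis3l and -0.45 for Exosc6. Upf1, the helicase that Regnase-1 needs for decay, had a TPM of 68.1 and 73.0, and Smg5, an adaptor that acts on UPF1, had 35.2 and 31.2. Of 7 UPF and SMG genes, 2 were higher and 2 lower in library 1, with 6 and 1 under DESeq2 size factors. Upf2 had the largest ratio, -0.76, and Smg5 followed with 0.34.

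All 10 genes of other proteins that bind AU-rich or pyrimidine-rich RNA were detected, and several were abundant. The lowest, Tial1, had 33.6 TPM in library 1 and 28.1 TPM in library 2, at the 51.0 percentile of detected protein-coding genes. Hnrnpab stood at 450.3 TPM in library 1, with 400.4 TPM in library 2, Hnrnpd (AUF1) 397 and 330, and Pcbp1 319 and 302. Elavl1, the stabilizing HuR protein gene, had 209.9 and 212. Of these 10 genes, 7 were higher and none lower in library 1, beside 23.9% and 46.4% of all genes tested. With TMM factors and with DESeq2 size factors all 10 were higher, beside 30.1% and 32.1% of all genes tested. Those factors also moved the median log2 ratio of detected genes to 0.10 and 0.14. In the small table, however, 4 were higher and 2 lower, beside 22.1% and 32.2%. The largest ratios were 0.30 for Khsrp and 0.27 for Hnrnpd, and Hnrnpd had -0.01 in the small table.

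Regulators of the regulators were detected for all 15 genes. Malt1, the protease that cleaves several of the 9 proteins, stood at 66.8 TPM in library 1, with 84.9 TPM in library 2. The highest were Ywhaz (780 and 743) and Ywhab (214 and 194), phosphoserine-binding adaptors of which ZFP36 proteins are clients, and Ikbkb (185 and 198), the kinase gene that marks Regnase-1 for degradation. In library 1, 4 of the 15 were higher and 8 lower, beside 23.9% and 46.4% of all genes tested. With DESeq2 size factors 6 were higher and 5 lower, beside 32.1% and 39.0%. The largest ratios were -0.75 for Dusp1, a phosphatase that acts on p38 kinase, with a TPM of 114 and 195, and -0.37 for Mapkapk3, a kinase downstream of p38, with 70.0 and 88.2.

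Among 30 mRNAs known as targets of one or more of these proteins, 23 were detected in both libraries. The highest were Tnfrsf4 (OX40), a Regnase-1 and Roquin target, at 312 TPM (library 1) and 233 TPM (library 2), the immediate early gene Ier2 with 269 and 333, and Stat3, which Arid5a is known to stabilize, with 209 and 191. Targets with the hairpin printed above were expressed too. Icos had 149 and 125, Nfkbid 60.7 and 76.6, Tnf 30.6 and 28.0, and Ier3 9.69 and 12.7. Icos has a short and a long 3' UTR in its coding models, and Icos-202, the one with the hairpin, had 87.9 and 76.4, against 61.3 and 48.8 for Icos-201, which lacks it.

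Several inflammatory targets were at a few counts or at 0. Il2 had 8 counts in library 1 and 7 in library 2, Ptgs2 had 7 and 13, and Il1b had none in either, with 0 and 1 in the small table. Il6 had 0 counts in library 1 and 81 in library 2, and 0 and 11 in the small table. Of the 29 targets tested, 9 were higher in library 1, 11 were lower and 9 did not pass. Of all genes tested, 23.9% were higher and 46.4% lower. With DESeq2 size factors 14 targets were higher and 8 lower, beside 32.1% and 39.0% of all genes. The median log2 ratio was -0.052 for the targets, -0.15 for the relatives, -0.059 for deadenylation and 0.016 for decapping. It was -0.10 for the exosome and Ski genes, 0.030 for UPF and SMG genes, 0.16 for other RNA-binding proteins and -0.11 for upstream regulators. Beside these stand -0.23 for all genes tested and -0.01 for detected genes. Apart from relatives and targets, every list gene found was detected, so the detected genes are the closer background. The shares of calls set beside the lists, however, are over all genes tested and were not computed for detected genes. Of calls among genes with at least 100 counts in sum, 47.9% were higher in library 1, against 33.9% of all calls. The largest called ratios among targets with at least 100 counts were 1.74 for the chemokine receptor gene Cxcr5, with a TPM of 22.7 and 6.26, and 1.35 for Il10, with 5.21 and 2.05. The Il10 ratio was 0.53 and not called in the small table. Letters of the AU-rich nonamer occurred in 9 of the 28 targets that had a coding transcript with a TPM above 0, and those of the hairpin core in 4. By the most abundant coding transcript of the 23 detected targets, the counts were 7 and 4.

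**Figure D5:**
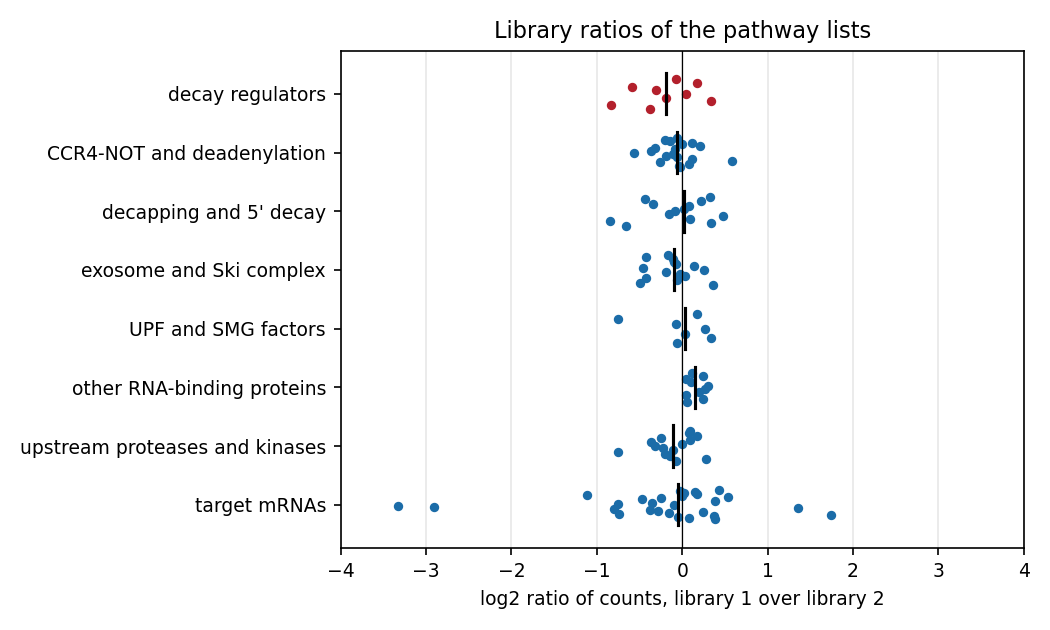
Log2 ratio of library 1 over library 2 for each tested gene of the 9 regulators (red) and of 7 pathway lists (blue), with black bars at the medians and 1 gene, Il6, outside the axis limits. The medians lie between -0.19 for the regulators and 0.16 for other RNA-binding proteins, and the target mRNAs spread widest.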

How the data were processed

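RNA of the 2 libraries was deposited as 3 kinds of table. Per the file headers, the large gene and transcript tables give an expected count, a TPM and an FPKM value for each feature; the deposited description says that they came from alignments to the mm10 transcriptome and GENCODE M21. IsoPct in the transcript table, per the file headers, is a percent within the gene. Whole-number counts in the small table go back to an mm10 alignment and the M4 annotation, as the deposited description states. No aligner, quantifier or strand setting is given in the sources used here, so overlapping genes are uncertain. Rows that name no gene (26345 of 81881) were left out.

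Expected counts were rounded, and the libraries were compared gene by gene with an exact binomial test against library totals, for genes with at least 10 counts in sum. Ratios used 0.5 added counts. Scaling alternatives came from edgeR 4.0.16 and DESeq2 1.42.0 (R 4.3.3). The test was checked only on simulated counts that hold counting error and no other variation between libraries. The real libraries varied more, with a chi-square of 33.5 per degree of freedom over the genes tested. The check therefore does not cover that wider spread. Fold intervals are exact 95% intervals of the share of counts, the limit for a gene at 0 is 3 counts, and both cover counting error only. Isoform shares are shares of TPM, and posterior SDs of counts are as deposited by the authors. Motifs were searched in GENCODE M21 transcript sequences downstream of the stop codon.

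The regulators, lists, tests and motifs were chosen with earlier results of these data known. Named genes of each list were the 3 with the highest mean TPM, up to 3 under a TPM of 1 in either library and the 2 with the largest called ratios at 100 counts or more. Targets with the hairpin core were added by sequence, and Malt1, Elavl1, Tial1 and Il1b were named after their values were seen. In the decapping list 13 of 14 symbols were found. With 2 libraries no likeness of pattern between genes was computed. Some genes that this rule names are not reported here.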

Additional observations from a re-analysis of the deposited data

How the results depend on the processing

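All 9 regulators were detected at TPM thresholds of 0.1 and 1, and 8 at thresholds of 5 and 10. The median level of the 9 was a TPM of 24.0, and leaving out a library gave values from 22.2 to 25.8. Regulators higher in library 1 numbered 2, but 4 with DESeq2 size factors and 0 in the small table. Those lower numbered 6, but 4 with TMM, 4 with DESeq2 size factors and 3 in the small table. Of all genes tested, 23.9% were higher and 46.4% lower, 30.1% and 40.5% with TMM, and 32.1% and 39.0% with DESeq2 size factors. The small table gave 22.1% and 32.2%. Over the pathway lists, genes higher in library 1 numbered 33, but 53 with TMM, 60 with DESeq2 size factors and 18 in the small table. List genes lower in library 1 numbered 45, but 30 with TMM, 28 with DESeq2 size factors and 36 in the small table. Of 54 member ratios under an alternative, 44 kept direction and call, 5 lost the call, 1 gained it and 4 changed sign. The sign changes were Zfp36l2 with TMM (0.035) and DESeq2 size factors (0.070), and Zfp36l1 (-0.041) and Rc3h2 (0.11) in the small table. Their cause was not tested. The count filter (none, or at least 100) and 5 added counts changed no count of regulators. By expected counts 9 regulators kept their leading transcript, and by TPM 6. Without 1 library no ratio can be formed. No paired analysis was possible because the labels give 1 group. Depth limits N4bp1 and the minor transcripts most.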
